A study of Callithrix jacchus with 20 samples.

Results

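The genes described here had high normalised read counts in cells sorted as marmoset primordial germ cell-like cells (cjPGCLCs) and low ones in the somatic cells (soma) sorted beside them, whichever of 2 induction protocols was used. A gene was included when the lowest of the 4 cjPGCLCs libraries reached at least 2.5 times the highest of the 4 soma libraries plus 1, and when the 4 cjPGCLCs libraries averaged at least 20 normalised counts. Of 25102 genes in the table, 152 met this rule. The levels of these 8 libraries chose the genes, so cjPGCLCs against soma, and either of them against other cells, is given as levels without a test. Tests are given for comparisons between the other libraries, and the difference between the protocols within cjPGCLCs is given as a description.

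All 20 libraries came from 1 line of induced pluripotent stem cells (cjiPSCs) of the common marmoset, DPZ_cjiPSC2, which was reprogrammed from foetal fibroblasts, so the replicates are cultures of 1 line and not animals. The cjiPSCs were kept in TESR, a feeder-free medium used for human pluripotent cells, or in cjPSCM, a marmoset medium derived from an expanded-potential recipe. From each medium, precursors of mesendoderm (pre-ME) were made with the GSK3 inhibitor CHIR, either with Activin A (ActA), a ligand of the NODAL branch of TGFβ signalling, or without it. Pre-ME cells from cjPSCM were then aggregated into embryoid bodies with BMP4, LIF, SCF and EGF, and were dissociated and sorted on day 4. The double-positive cells are called cjPGCLCs and the double-negative cells soma. The series holds no sorted cells from TESR cultures. Each of the 10 conditions had 2 biological replicates. The sample titles name integrin α6 and EpCAM as the sort antigens, other labels CXCR4 and EpCAM, and the paper integrin α6 and CXCR4. All 3 genes, ITGA6, EPCAM and CXCR4, were among the 152, which the gate can set, and their presence is not a finding.

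Primordial germ cells are the embryonic founders of sperm and oocytes. In primates, SOX17 and TFAP2C (AP2γ), together with PRDM1 (BLIMP1), start their programme, and NANOS3 and DPPA3 are among the genes that mark them soon afterwards. SOX17 is also a regulator of definitive endoderm, where it acts with FOXA2 and HNF4A, factors that later drive liver, gut and pancreas genes. SOX17 alone therefore does not separate the germ line from endoderm.

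The depth was 4784964 to 22067099 reads counted on genes per library, with 6708915 to 14216617 in cjPGCLCs and 4784964 to 7171565 in soma. In a soma library 3 counts correspond to 4.47 to 6.92 normalised counts, and 50 of the 152 genes were at 3 counts or fewer in all 4 soma libraries. Where both soma libraries of a protocol were that low, the ratio to soma is a lower bound. Values separated by a slash are replicates 1 and 2 of a condition. Counts were not scaled by gene length, so levels are compared between libraries and not between genes.

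Checked against marker lists, the cells sorted as cjPGCLCs carried part of the early germ cell genes and part of the endoderm genes at the same time. They also carried mesoderm and amnion genes, as did soma. The summed level of the mesoderm list was 10570 to 15405 normalised counts in cjPGCLCs, 11759 to 19685 in soma and 230 to 355 in pre-ME from cjPSCM. That of the amnion, trophoblast and surface ectoderm list was 16421 to 18590, 11039 to 14268 and 1635 to 3123. The latter sum holds TFAP2B, which the rule chose. Of 17 early germ cell genes with counts, 5 were among the 152 (SOX17, TFAP2C, NANOS3, DPPA3 and KLF4). These 5 and PRDM1 were the 6 genes higher in every cjPGCLCs library than in every soma library, and the others overlapped. For the 5 genes the rule itself requires this. PRDM1 missed the rule, at 221/196 normalised counts in cjPGCLCs with ActA and 288/279 without it, against 86.8/93.9 with ActA and 99.2/85.1 without in the corresponding soma. PRDM1 was higher in cjiPSCs in cjPSCM, at 1175/821, than in cjPGCLCs. KIT, NR5A2, SOX15, DND1, PDPN, ITGB3, ALPL and ARID5B overlapped between the sorted cells. NR5A2, reported in the paper as up-regulated against soma, had 3.38 to 11.4 normalised counts in cjPGCLCs and 0 to 3.54 in soma. PRDM14, TCL1B and CD38 were at 3 counts or fewer in all cjPGCLCs libraries. The summed level of the 17 genes was 3530.4 to 4898 normalised counts in cjPGCLCs and 1658 to 2424 in soma. This sum holds the 5 genes that the rule chose, SOX17 the largest of them, so its direction is not evidence about the cells. Of 9 late germ cell and meiosis genes none was included, where the rule took 152 of 25102 genes. DAZL, DDX4, MAEL and STRA8 were at 3 counts or fewer in every cjPGCLCs library.

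Of 15 endoderm genes with counts, the factors FOXA2 and HNF4A were among those included, and 6 were higher in every cjPGCLCs library than in every soma library. The other 9 overlapped, and CER1 was at 3 counts or fewer in all cjPGCLCs libraries. The summed level of the 15 endoderm genes was 4342 to 11512 in cjPGCLCs and 3599 to 5924 in soma, and this sum too holds genes that the rule chose. Over all genes tested, 12.3% had every cjPGCLCs library above every soma library. No endothelial and blood gene (of 20), mesoderm gene (of 14) or NODAL and BMP pathway gene (of 19) was included. The rule took 152 of 25102 genes, so 0 in lists this short does not show that cjPGCLCs lacked such genes. It also leaves out genes that soma expressed at similar levels. Higher in every cjPGCLCs library than in every soma library were 1, 0 and 5 genes of these lists, in this order. Lower in every one were 3, 2 and 2. Of the other lists the 152 held UTF1 and OTX2 (pluripotency), KLF5 (naive pluripotency), TFAP2B (amnion and surface ectoderm), OTX1 (neural), EPCAM and ESRP1 (epithelial adhesion) and ERBB3 (EGF receptor family). Of the 15 pluripotency genes, 5, with POU5F1 among them, were higher in every cjPGCLCs library than in every soma library. SOX2 and ZIC2 were lower in every one, and 8, NANOG among them, overlapped. By protocol, NANOG was 136/297 in cjPGCLCs against 158/203 in soma with ActA. Without ActA it was 146/238 against 92.2/97.5, where it did not overlap. SOX2 was 1094/1838 with ActA and 1100/1571 without in cjPGCLCs, against 2799/3245 with ActA and 2214/2282 without in soma. In bulk libraries, more cells of a type and more RNA per cell cannot be told apart. Neither can 1 cell type with several of these marker sets and a mixture of cells.

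A stage of first expression was assigned to each gene along the cjPSCM series. A gene counted as expressed in a condition when both libraries had at least 20 normalised counts, and the earliest of cjiPSCs, pre-ME (either protocol) and day 4 was taken. In this way 77 of the 152 genes were already expressed in cjiPSCs, 9 appeared in pre-ME and 66 appeared on day 4. Of the 77 genes, 64 were expressed in both pre-ME conditions and 7 in neither. In 46 of the 66 day-4 genes all 4 cjPGCLCs libraries reached 20 normalised counts. The ratio used by the rule had a median of 5.45 for day-4 genes and 3.36 for genes expressed from cjiPSCs on. The class boundaries depend on the level chosen: 135 genes kept their class at 10 normalised counts and 127 at 50, and 115 did when the level asked for was a fixed fraction of the gene's own cjPGCLCs level, a definition added after the data were seen.

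**Figure D1:**
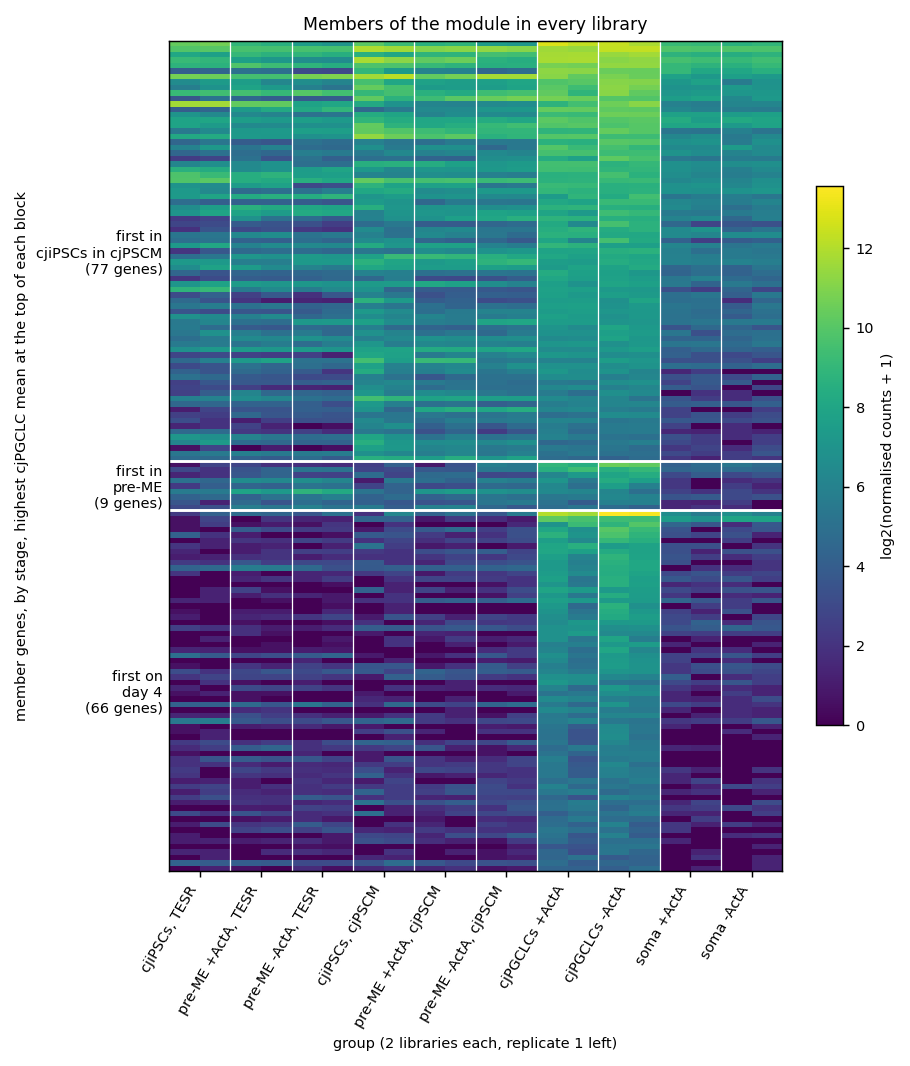
Normalised counts of the 152 genes in all 20 libraries, as log2 with 1 added (colour). Columns are the 10 conditions with replicate 1 on the left, and rows are grouped by stage of first expression, with the highest cjPGCLCs mean at the top of each block. The block of 66 day-4 genes is mostly dark outside the 4 cjPGCLCs libraries, whereas the block of 77 genes is bright in cjiPSCs as well.

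Levels in cjPGCLCs and soma were also set against pre-ME. Relative to the pre-ME cells of the same protocol, 114 genes were more than 2-fold higher in cjPGCLCs in both protocols and 50 were more than 2-fold lower in soma in both, with 17 genes in both sets and 5 in neither. All 66 day-4 genes were higher in cjPGCLCs in this sense and 11 of them were lower in soma, but a day-4 gene was by definition below 20 normalised counts in at least 1 library of each pre-ME condition. Among the 77 genes expressed in cjiPSCs, 42 were more than 2-fold higher in cjPGCLCs than in pre-ME and 34 were more than 2-fold lower in soma. In 10 genes, 9 of them expressed from cjiPSCs on, the mean of cjPGCLCs was below that of pre-ME in both protocols, and soma was lower still.

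**Figure D2:**
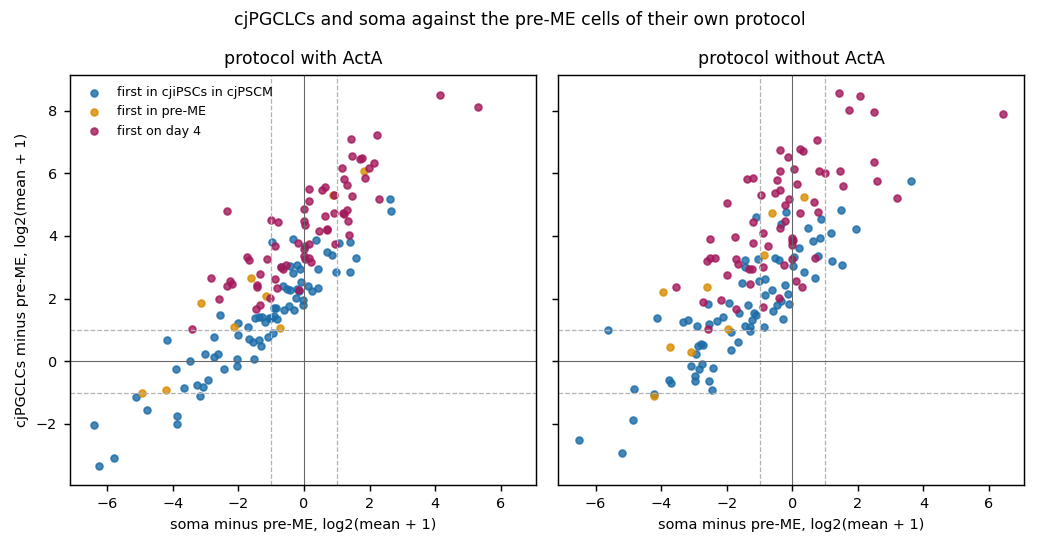
Each of the 152 genes by the difference of soma from pre-ME (x axis) and of cjPGCLCs from pre-ME (y axis) in the protocol with ActA (left) and without (right), as log2 of the mean of 2 libraries plus 1. Points are coloured by stage of first expression, dashed lines mark 2-fold. Genes first expressed on day 4 lie above 0 on the y axis, while part of the genes expressed in cjiPSCs lie at or below 0 and to the left of it.

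For the description by function, 55 of the 152 genes were put into 5 groups according to what they are known to do, after their values had been seen, and 97 were left as other. Germ cell and pluripotency genes made up 8 of the 55. Of these, 7 were expressed in cjiPSCs and 1, NANOS3, appeared on day 4. SOX17 had 765/258 normalised counts in cjiPSCs, 219/187 in pre-ME with ActA and 199/255 in pre-ME without it. In cjPGCLCs it reached 913/1034 with ActA and 2152/2096 without, and in soma it was 143/219 with ActA and 48.4/118 without. Both libraries without ActA lay above both with ActA.

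TFAP2C had 213/60.8 normalised counts in cjiPSCs, 63.4/78.6 in pre-ME with ActA and 61.3/114 without. In cjPGCLCs it was 113/114 with ActA and 100.2/126 without, and in soma 28.3/25.3 with ActA and 18.4/27.8 without. The highest TFAP2C value of the whole series was thus in a cjiPSCs library, the other cjiPSCs library was lower than all cjPGCLCs libraries, and cjPGCLCs overlapped with pre-ME without ActA. NANOS3, an RNA-binding protein of the germ line, had 8.48/1.48 in cjiPSCs, 6.68/5.62 with ActA and 3.54/2.97 without it in pre-ME, 42.3/14.2 in cjPGCLCs with ActA, 61.5/44.1 in cjPGCLCs without it and 3.54/1.49 with ActA and 0/3.09 without in soma. Replicate 2 with ActA stood well below the other 3 cjPGCLCs libraries for this gene.

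DPPA3 (STELLA), a gene of oocytes, early embryos and primordial germ cells, was highest before induction, with 69.7/105 normalised counts in cjiPSCs in cjPSCM. It was 16.7/30.9 with ActA and 11.2/25.8 without it in pre-ME, 49.9/32.7 with ActA and 47.1/48.9 without in cjPGCLCs, and 5.31/0 with ActA and 2.31/0 without in soma. UTF1, a pluripotency gene, had 357/144 in cjiPSCs and 96.8/99.7 with ActA and 80.8/105 without it in pre-ME but 22.0/25.6 with ActA and 43.3/56.7 without in cjPGCLCs, and it is 1 of the 10 genes below pre-ME in both protocols. KLF4 went the other way, from 39.6/34.1 in cjiPSCs through 100.1/80.1 with ActA and 121/144 without it in pre-ME to 229.9/243 with ActA and 366/409.8 without in cjPGCLCs, with 58.4/29.8 with ActA and 46.1/38.7 without in soma. KLF5 and OTX2 were expressed in cjiPSCs too, and OTX2, which restrains germ cell entry in mouse epiblast, had 430.2/407 with ActA and 374/359 without in cjPGCLCs against 65.5/85.0 with ActA and 23.1/57.2 without in soma.

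Endoderm factors and liver or gut genes formed a group of 13, of which 11 appeared only on day 4. C3, a complement component made by the liver, was expressed in cjiPSCs. FOXA2, a pioneer factor of endoderm, was 2.5/5.62 normalised counts in pre-ME with ActA from cjPSCM and 5.31/7.93 in pre-ME without it. In cjPGCLCs it was 192/83.9 with ActA and 518/356 without it, and in soma 0/0 with ActA and 4.61/0 without, which puts the ratio of the means at a value of at least 28.2-fold with ActA and at least 75.6-fold without. HNF4A, a regulator of liver and gut genes, was 4.17/1.40 with ActA and 2.95/8.92 without it in pre-ME, 418/131 with ActA and 835/446 without in cjPGCLCs and 8.85/5.96 with ActA and 9.22/1.55 without in soma. For both factors, every cjPGCLCs library stood above every other library of the series.

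IHH, a hedgehog ligand secreted by gut epithelium, was 13.4/25.3 with ActA and 4.72/8.92 without it in pre-ME, 264/112 with ActA and 1069/567 without in cjPGCLCs and 10.6/0 with ActA and 6.92/10.8 without in soma. Each cjPGCLCs library without ActA had a higher IHH value than either library with it.

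Genes of differentiated liver and intestine were part of the same group. GC, the vitamin D-binding protein of plasma, had 0.834/4.21 normalised counts in pre-ME with ActA and 1.18/1.98 without, and reached 116/41.2 with ActA and 237/52.0 without in cjPGCLCs, with 0/1.49 with ActA and 0/0 without in soma. HABP2, a plasma protease, was 134/42.7 with ActA and 380.5/208 without in cjPGCLCs, and GPX2, a glutathione peroxidase of the gut, 142/42.7 with ActA and 334/177 without. RFX6, a factor of gut and pancreatic endocrine cells, was 33.0/9.95 with ActA and 100.2/33.1 without and had no read in any of the 4 pre-ME libraries from cjPSCM. SERPINA1 (α1-antitrypsin) was 34.7/11.4 with ActA and 61.5/14.2 without in cjPGCLCs and SELENOP (a selenium carrier of plasma) 177/92.4 with ActA and 342/232 without. MTTP, which loads lipid onto apolipoprotein B, was 106/37.0 with ActA and 153/107 without, and SLC39A4, a zinc importer of the gut, 209.6/37.0 with ActA and 379.7/199 without. These genes followed one order of libraries: all 13 were lowest in replicate 2 with ActA and highest in replicate 1 without it among the 4 cjPGCLCs libraries. Their summed level was 2566/1062 in cjPGCLCs with ActA, 6614/3907 in cjPGCLCs without it, and 85.0/64.1 with ActA and 108/75.8 without in soma.

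The 9 epithelial junction and polarity genes showed nearly the same order, with all 9 lowest in replicate 2 with ActA and 8 highest in replicate 1 without it. EPCAM, itself named as a sort antigen, was 391/315 normalised counts in pre-ME with ActA and 656/759.8 without, 1204/472 with ActA and 2237/1234 without in cjPGCLCs, and 139.9/167 with ActA and 141/145 without in soma. ESRP1, a splicing regulator of epithelial cells, was 29.2/18.3 with ActA and 60.7/51.5 without it in pre-ME, 132/44.1 with ActA and 324/202 without in cjPGCLCs and 3.54/0 with ActA and 2.31/3.09 without in soma. The tight-junction genes OCLN, CGN, TJP3 and MARVELD3, the polarity gene CRB3 and the transcription factors OVOL2 and ELF3 made up the rest. Tight-junction genes were expressed at different stages, CGN from cjiPSCs on, OCLN from pre-ME without ActA on, and TJP3 and MARVELD3 on day 4. CDH1 (E-cadherin), the adhesion molecule of most epithelia, was not among them. It had 1710.5/2012 normalised counts in cjiPSCs in TESR but 2.83/4.45 in cjPSCM, 6.76/7.11 with ActA and 3.04/6.30 without in cjPGCLCs and 1.77/5.96 with ActA and 0/0 without in soma.

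The spread between the cjPGCLCs libraries therefore differed between the groups. The highest of the 4 libraries was 6.38 times the lowest in the median endoderm gene and 6.06 times in the median epithelial gene. It was 2.07 times in the germ cell and pluripotency genes, 1.86 in the channels and receptors and 1.85 in the matrix genes, against 2.21 over the 152 genes and 1.27 over 13205 genes with a cjPGCLCs mean of at least 20. Replicate 1 exceeded replicate 2 in both protocols in all 13 endoderm genes and 8 of 9 epithelial genes, but in 3 of 8 germ cell genes, in 80 of the 152 genes (52.6%) and in 33.4% of the 13205 genes. The rule asked only for the lowest library to clear the soma level, so a gene could enter it with a wide spread above that.

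**Figure D3:**
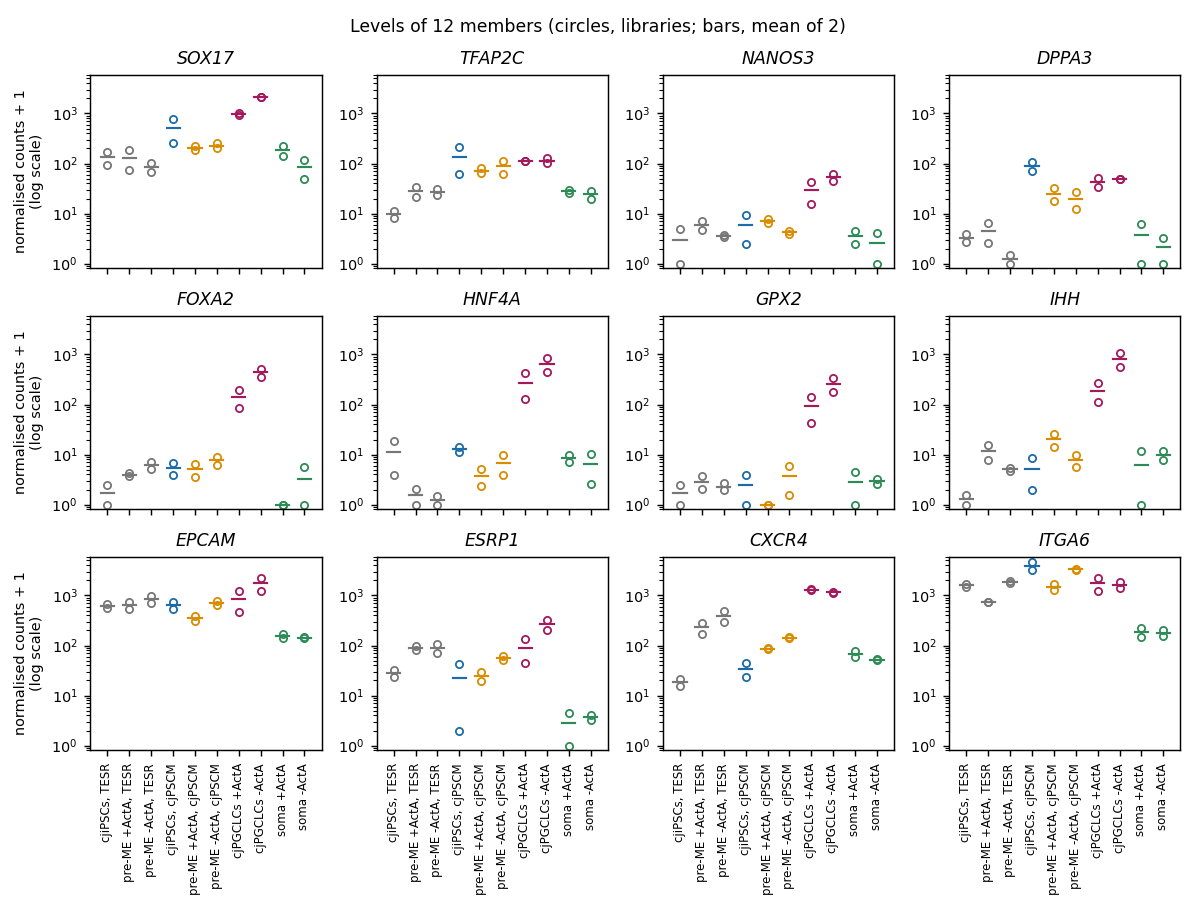
Normalised counts plus 1 (log axis) of 12 genes in the 10 conditions. Circles are the 2 libraries and bars their mean. SOX17, TFAP2C and DPPA3 are expressed in cjiPSCs kept in cjPSCM, NANOS3, FOXA2, HNF4A and IHH stay low until cjPGCLCs, and EPCAM and ITGA6 are lower in soma than in every other condition.

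Matrix and adhesion genes numbered 13, of which 8 were expressed in cjiPSCs and 5 appeared on day 4. ITGA6 (integrin α6, a laminin receptor) was 3224/4632 normalised counts in cjiPSCs, 1259/1715 with ActA and 3448/3264 without it in pre-ME, 2277/1206 with ActA and 1829/1401 without in cjPGCLCs and 218/149 with ActA and 201/155 without in soma. CjPGCLCs thus did not exceed cjiPSCs for this sort marker, and soma was low. TNC (tenascin C, a matrix glycoprotein) was 389/459 with ActA and 173/138 without it in pre-ME, 7427/5120.0 with ActA and 5239/3691 without in cjPGCLCs and 556/529 with ActA and 394/479.6 without in soma. ITGA4, the α4 integrin used by migrating cells, was 10.01/12.6 with ActA and 11.8/7.93 without it in pre-ME, 117/122 with ActA and 102/110.3 without in cjPGCLCs and 10.6/14.9 with ActA and 20.8/12.4 without in soma. LAMA4, a laminin chain, was 1229.9/1447 with ActA and 406/347 without it in pre-ME, 3559/3648 with ActA and 2297/2499.5 without in cjPGCLCs and 759.6/651 with ActA and 542/664 without in soma. SELE (E-selectin, best known from activated endothelium) had 145/99.5 in cjPGCLCs with ActA and 37.2/34.7 without, both with-ActA libraries above both others. The remaining genes were the collagens COL10A1 and COL23A1, the secreted COCH, IGFBP7 and SPARCL1, the cadherins CDH9 and CDH19, and NCAM2. COCH and COL10A1 stood in contrast to TNC: COCH was 189/343 with ActA and 133/219.9 without it in pre-ME and 27.9/22.7 with ActA and 18.2/26.8 without in cjPGCLCs, below pre-ME in both protocols.

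Ion channels and surface receptors numbered 12, of which 5 were expressed in cjiPSCs and 7 appeared on day 4. CXCR4, the receptor by which migrating germ cells follow CXCL12 and 1 of the sort antigens, was 22.6/44.5 normalised counts in cjiPSCs, 82.6/88.5 with ActA and 141/144 without it in pre-ME, 1317/1275 with ActA and 1183/1128 without in cjPGCLCs and 76.1/58.1 with ActA and 53.0/49.5 without in soma. Its 4 cjPGCLCs libraries lay close together. SCN9A, a voltage-gated sodium channel gene, had no read in any soma library and 35.5/19.9 with ActA and 56.2/55.2 without in cjPGCLCs. ERBB3, a receptor of the EGF receptor family, was expressed throughout, with 473/326 in cjiPSCs, 259/261 with ActA and 325/261 without it in pre-ME, 1111/894 with ActA and 991/1072 without in cjPGCLCs and 326/186 with ActA and 304/239.8 without in soma. ADRA2A, HRH2, OPRK1 and MLNR are G protein-coupled receptors, FZD5 is a WNT receptor, KLB a co-receptor for FGF19 and FGF21, and IL20RA a cytokine receptor.

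Among the 97 remaining genes, 54 were expressed in cjiPSCs, 6 appeared in pre-ME and 37 appeared on day 4. SCIN (scinderin, which severs actin filaments) had the highest ratio of all 152 genes, 31.7, with 19.2/33.7 with ActA and 12.4/47.6 without it in pre-ME (normalised counts), 4217/3321 with ActA and 12087/11210.1 without in cjPGCLCs and 95.6/49.2 with ActA and 104/60.3 without in soma. PPP2R2C, a regulatory subunit of protein phosphatase 2A, was 59.2/56.9 with ActA and 148/179.7 without in cjPGCLCs and at 3 counts or fewer in all soma libraries, a ratio of at least 11.9-fold with ActA and at least 28.4-fold without. RBM47, an RNA-binding protein, was 154/66.8 with ActA and 349/274 without against 0/2.98 with ActA and 2.31/3.09 without. ST6GAL2, a sialyltransferase, was 252/379.6 with ActA and 171/227 without against 8.85/8.94 with ActA and 0/3.09 without, and both libraries with ActA lay above both without it, unlike in the endoderm genes. GPNMB, a transmembrane glycoprotein first expressed in pre-ME without ActA, was 374/646 with ActA and 381/531 without against 21.2/23.9 with ActA and 25.4/20.1 without.

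Chosen after their values were seen, TH and PTPRC are day-4 genes known from other lineages. TH (tyrosine hydroxylase, the first enzyme of catecholamine synthesis) was 0/0 with ActA and 0/0 without it in pre-ME (normalised counts), 149/24.2 with ActA and 402/110.3 without in cjPGCLCs and 0/4.47 with ActA and 4.61/0 without in soma. PTPRC (CD45, a leukocyte phosphatase) was 27.0/46.9 with ActA and 27.3/25.2 without in cjPGCLCs and 0/4.47 with ActA and 0/0 without in soma. Other day-4 genes were the secreted WNT antagonist SFRP5, the peptide hormone gene CALCA, the tuft cell factor POU2F3, the head gap gene OTX1, STX3, HKDC1, ENTPD8, GALNT6, GSDMC, MPV17L, S100A14, SGPP2, SH3YL1, SLC38A8, SLC8A2, SPTSSB, VWA5B2, ZYG11A, CBLN4, DPP10, FAM83B, FRMPD1, GRIP2, GSG1, LRRC43, PSKH2, MIR9-1HG and 4 genes with only a LOC name. Genes first expressed in pre-ME, by the limit of 20 normalised counts in both libraries, included ARHGEF16, B3GAT2, ESRP1, GPNMB, LRRC7, MYO3B, OCLN and SLC34A2. ESRP1 had 0.942/41.5 normalised counts in cjiPSCs in cjPSCM, so its replicates there stood on both sides of the limit, as did those of SLC34A2.

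Values of some further genes show the range. MIR9-1HG, the host gene of a microRNA, was 1.67/1.40 with ActA and 0/0 without it in pre-ME (normalised counts), 115/171 with ActA and 81.3/82.0 without in cjPGCLCs and 5.31/4.47 with ActA and 4.61/4.64 without in soma. GSTO1, a glutathione transferase, was 323/57.8 in cjiPSCs, 57.6/91.3 with ActA and 38.3/57.5 without it in pre-ME, 144/95.3 with ActA and 123/69.3 without in cjPGCLCs and 1.77/4.47 with ActA and 0/0 without in soma. SLC7A2, a transporter of cationic amino acids, was 457/444 with ActA and 715/683 without it in pre-ME, 3410.3/3539 with ActA and 2830.5/3279.7 without in cjPGCLCs and 441/382 with ActA and 348/435 without in soma. The first of these appeared on day 4, the second was no higher in cjPGCLCs than in one of the cjiPSCs libraries, and the third was expressed throughout and highest in cjPGCLCs.

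Genes of the remaining group that were expressed in cjiPSCs included several signalling components. HHIP, which binds and blocks hedgehog ligands, was 292/119 normalised counts in cjiPSCs, 69.3/63.2 with ActA and 83.1/97.1 without it in pre-ME, 435/694 with ActA and 1504/2284 without in cjPGCLCs and 62.0/52.2 with ActA and 71.5/71.2 without in soma. The hedgehog ligand IHH and its antagonist HHIP were therefore both high in the same bulk libraries, which cannot show whether the same cells expressed both. LDLRAD4, a membrane protein that restrains TGFβ signalling through SMAD2 and SMAD3, was 583/537 with ActA and 379/394 without in cjPGCLCs against 115/129.7 with ActA and 76.1/114 without in soma. Others were the ligand TGFB2, the aryl hydrocarbon receptor gene AHR, LPL (lipoprotein lipase), the gap junction gene GJA4, SLC17A8 (a vesicular glutamate transporter), TFAP2B, PLK2, LGALS3, NFE2L3, UNC13B, TENM1 and RGS6, and 3 genes with only a LOC name. By the RefSeq gene order of calJac240_pri, an assembly other than the one used for counting, 2 pairs of the 152 genes were direct neighbours, NOXA1 with ENTPD8 and DTX3L with PARP9.

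The rule drew its line within a continuum. Just inside were ZNF296 with a ratio of 2.51, SGPP2 with 2.53 and ARHGAP25 with 2.53. Just outside were CLDN7 (a claudin of epithelial junctions) with 2.4997, SPINT1 with 2.49 and TRIML2 with 2.49. CLDN7 had 22.0/9.95 normalised counts in cjPGCLCs with ActA, 50.1/20.5 without it, and 0/2.98 with ActA and 2.31/1.55 without in soma, so that its replicate 2 with ActA kept it out.

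The next comparisons use the cjiPSCs and pre-ME libraries, which did not choose the genes, and were tested on raw counts with edgeR's quasi-likelihood test over all 20 libraries, with Benjamini-Hochberg adjustment over 15797 genes. Genes whose log2 fold change exceeded 2 in size with an adjusted p below 0.05 were called higher or lower. The filter on low counts looked at all 20 libraries, so all 152 genes passed it, some through cjPGCLCs alone. Each comparison is therefore also given over genes with at least 10 counts in 2 or more of its 4 libraries (4 or more of 8 for the interaction), for the 152 genes and for all genes alike, a restriction added after the data were seen. Comparisons that share libraries, such as both pre-ME conditions against the same cjiPSCs, are not independent of each other, and their values are given side by side.

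The culture medium was compared first, because the 152 genes are high in cells that came from cjPSCM. Many of them were already higher in cjiPSCs kept in cjPSCM than in TESR: 44 of 152 were called higher (28.9%), against 5.51% of all genes tested, and 4 were called lower, against 3.67%. The median log2 fold change was 1.28 over the 152 genes and -0.0004 over all genes. Of the 152 genes, 93 had 10 counts in 2 of the 4 cjiPSCs libraries. Among these, 37 were called higher (39.8%, against 4.94% of all genes with such counts) and 3 lower (3.23%, against 3.51%), with a median log2 fold change of 1.28. Of the 44 genes, 35 belonged to those expressed in cjiPSCs. Of the 8 germ cell and pluripotency genes, 6 were called higher. Among the 77 genes expressed in cjiPSCs in cjPSCM, 52 also reached 20 normalised counts in both TESR libraries.

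DPPA3 was 1.65/2.98 normalised counts in TESR and 69.7/105 in cjPSCM. Both TESR libraries had 3 counts or fewer, so DPPA3 was at least 28.6-fold higher in cjPSCM (edgeR adjusted p = 2.12e-05). SLC17A8 was 11.6/34.2 in TESR and 1200.0/422 in cjPSCM, a log2 fold change of 5.41 (SE 0.53, edgeR adjusted p = 8.79e-07). TFAP2C was 7.16/10.4 in TESR and 213/60.8 in cjPSCM, a log2 fold change of 4.05 (SE 0.55, edgeR adjusted p = 2.63e-05). For SLC17A8 and TFAP2C the libraries in cjPSCM lay far apart, and both were above both TESR libraries. The other germ cell and pluripotency genes called higher were OTX2 (log2 fold change 4.22), KLF5 (3.67), KLF4 (2.60) and SOX17 (2.03). The KLF4 call was lost without replicate 1 in TESR (log2 fold change 1.63). The SOX17 call was lost without replicate 1 in TESR (1.62) and without replicate 1 in cjPSCM (1.02).

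CAJA-E, an MHC class I gene, had the largest log2 fold change of the 152 genes between the media, 0.551/5.96 normalised counts in TESR and 209/151 in cjPSCM (6.31, SE 0.59, edgeR adjusted p = 4.4e-07). MHC class I genes have near-identical copies, which makes the assignment of their reads uncertain. Called lower in cjPSCM were HHIP, with 3247/3309 in TESR and 292/119 in cjPSCM (log2 fold change -3.98, SE 0.31, edgeR adjusted p = 7.21e-08), LPL with 876/582 in TESR and 68.8/65.2 in cjPSCM (-3.47), TFAP2B with 454/541 in TESR and 119/20.8 in cjPSCM (-2.76) and MTTP with 29.7/13.4 in TESR and 0.942/0 in cjPSCM, at least 5.93-fold lower. HHIP, LPL and TFAP2B were thus high in TESR cjiPSCs, lower in cjPSCM cjiPSCs and higher again in cjPGCLCs. FOXA2, HNF4A and IHH stayed below 20 normalised counts in all 4 cjiPSCs libraries of both media.

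In pre-ME the same comparison of media gave fewer calls. With ActA, 16 of the 152 genes were higher in pre-ME from cjPSCM (10.5%, against 2.68% of all genes) and 2 were lower (against 1.44%). Without ActA, 25 were higher (16.4%, against 2.68%) and 2 were lower (against 1.22%). The median log2 fold change of the 152 genes was 0.45 with ActA and 0.64 without, against -0.02 and -0.01 over all genes. Of the 101 genes with 10 counts in 2 of the 4 libraries with ActA, 14 were called higher (13.9%, against 2.44% of all such genes) and 2 lower (against 1.47%). Of the 102 without ActA, 23 were called higher (22.5%, against 2.57%) and 2 lower (against 1.25%). CDH9, which was 0/0.531 normalised counts in pre-ME with ActA from TESR and 15.0/18.3 from cjPSCM, was at least 10.3-fold higher (edgeR adjusted p = 6.51e-05). SLC17A8 was 13.2/14.5 in pre-ME without ActA from TESR and 1374/1707 in that from cjPSCM (log2 fold change 6.79, SE 0.52, edgeR adjusted p = 3.42e-07). OTX2, KLF4, KLF5, UTF1 and DPPA3 were called higher from cjPSCM in pre-ME without ActA, and of these DPPA3 alone passed both thresholds with ActA. That DPPA3 call (log2 fold change 2.66) was lost without replicate 2 from TESR (2.03) and without replicate 2 from cjPSCM (2.21). The KLF5 call without ActA (2.11) was lost without replicate 2 from TESR (1.78) and without replicate 2 from cjPSCM (1.93).

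TFAP2B was called lower in pre-ME from cjPSCM in both protocols, but each call was lost in 3 of the 4 fits that left out 1 library. It had 44.9/87.0 normalised counts from TESR and 14.2/14 from cjPSCM with ActA (log2 fold change -2.23, SE 0.60, edgeR adjusted p = 0.0118). Without ActA it was 48.3/81.9 from TESR and 12.4/10.9 from cjPSCM (log2 fold change -2.46, edgeR adjusted p = 0.00723). Left-out libraries moved its log2 fold change between -2.63 and -1.68 with ActA and between -2.77 and -2.02 without. With ActA the call held only without replicate 1 from TESR, and likewise without ActA. The second gene called lower was HHIP with ActA and ARSJ, a sulfatase gene, without it (334/448 from TESR and 86.7/78.3 from cjPSCM).

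The step from cjiPSCs to pre-ME in cjPSCM took more of the 152 genes down than up. With ActA, 15 were called lower (9.87%, against 1.64% of all genes) and 3 higher (1.97%, against 1.42%), and the median log2 fold change was -0.77 against -0.0004 over all genes. Without ActA, 19 were called lower (12.5%, against 3.16%) and 6 higher (3.95%, against 2.11%), with a median of -0.52 against 0.03. Of the 152 genes, 95 had 10 counts in 2 of the 4 libraries of the comparison with ActA, and 12 of these were called lower (12.6%, against 1.57% of all such genes) and 3 higher (3.16%, against 1.18%). Without ActA 102 had such counts, and 16 were called lower (15.7%, against 2.93%) and 4 higher (3.92%, against 1.76%). The median log2 fold change of these genes was -0.69 with ActA and -0.74 without. The 2 libraries of cjiPSCs in cjPSCM differed more from each other than those of any other tested condition: the log2 difference between replicates had an SD of 0.959, against 0.311 to 0.619. Without replicate 1 of these cjiPSCs, the genes called lower numbered 6 with ActA and 10 without. Without replicate 1 of pre-ME with ActA, 4 were called lower with ActA, and without replicate 2 of the cjiPSCs 5 were called higher with ActA.

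GJA4 (connexin 37) fell from 418/168 normalised counts in cjiPSCs to 14.2/18.3 in pre-ME with ActA (log2 fold change -4.20, SE 0.56, edgeR adjusted p = 8.13e-05) and 7.66/8.92 without (-5.13, SE 0.58, edgeR adjusted p = 9.51e-06). It was 177/186 with ActA and 112/243 without in cjPGCLCs, so a second high phase followed the low one. KLF5 fell from 1290.5/768 to 167/183 with ActA (log2 fold change -2.55, edgeR adjusted p = 9e-05) and 180.4/229.8 without (-2.31, edgeR adjusted p = 7.76e-05), and cjPGCLCs had 1086/653 with ActA and 2332/1672 without. ADRA2A (the α2A adrenergic receptor) had the same course, with 503/169 in cjiPSCs, 66.8/64.6 with ActA and 21.8/27.7 without it in pre-ME and 2478/2328 with ActA and 1388/1381 without in cjPGCLCs. DPPA3 fell in pre-ME without ActA (log2 fold change -2.25, SE 0.51, edgeR adjusted p = 0.0029) and was at -1.89 with it, where edgeR's adjusted p was 0.0177 and the fold change threshold was not met. Without replicate 1 of these cjiPSCs, KLF5 was at -1.86 without ActA and ADRA2A at -1.33 with it, and both calls were lost. The DPPA3 call was lost without replicate 2 of the cjiPSCs (-1.97) and without replicate 1 of pre-ME without ActA (-1.69). The test between the pre-ME conditions themselves gave 0.36 for DPPA3 (SE 0.56, edgeR adjusted p = 0.687).

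Genes called higher in pre-ME than in cjiPSCs were few. SLC34A2, a phosphate transporter, rose from 35.8/19.3 normalised counts to 139/177 with ActA (log2 fold change 2.47, SE 0.37, edgeR adjusted p = 0.000256). CXCR4 rose from 22.6/44.5 to 141/144 without ActA (log2 fold change 2.19, SE 0.32, edgeR adjusted p = 9.91e-05), and with ActA it had 82.6/88.5 (1.43, edgeR adjusted p = 0.00849), below the fold change threshold. CDH9 and COL10A1 were called higher with ActA, and genes called higher without it included CDH9, GPNMB, OTX1 and MTTP. OTX1 and MTTP were called at low counts, with 2.95/10.9 (OTX1) and 12.4/3.96 (MTTP) normalised counts in pre-ME without ActA. Several of these calls rested on single libraries. The CXCR4 call was lost without replicate 1 of the cjiPSCs (log2 fold change 1.72), and so was the CDH9 call with ActA (2.45, edgeR adjusted p = 0.0904). The COL10A1 call was lost without replicate 2 of the cjiPSCs (1.33) and without replicate 2 of pre-ME with ActA (1.83). The OTX1 call was lost without replicate 1 of the cjiPSCs (2.03, edgeR adjusted p = 0.271) and without replicate 2 of pre-ME without ActA (2.18, edgeR adjusted p = 0.199). The MTTP call was lost in 3 of 4 such fits, with values from 2.61 to 6.37, and was kept only without replicate 2 of pre-ME without ActA.

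Comparing pre-ME with ActA directly with pre-ME without it, 3 of the 152 genes were called higher (1.97%, against 1.42% of all genes) and 6 lower (3.95%, against 0.69%). The median log2 fold change was -0.17, against -0.02 over all genes. Of the 99 genes with 10 counts in 2 of the 4 libraries, 2 were called higher (2.02%, against 1.23% of all such genes) and 4 lower (4.04%, against 0.641%). PRR15 was 555/541 with ActA and 41.9/49.5 without (3.57, SE 0.46, edgeR adjusted p = 7.96e-05). LDLRAD4 was 212/226 with ActA and 38.3/43.6 without (2.41, SE 0.29, edgeR adjusted p = 4.43e-05). Genes called lower with ActA included ADTRP, P3H2, the tight-junction gene OCLN, and SPTSSB and FAM83B, which had 3 counts or fewer in both libraries with ActA. GALNT6 was called higher although 1 of its libraries with ActA lay within the range of those without, at 10.8/1.40 with ActA and 0.59/1.98 without. The GALNT6 call was lost in 3 of the 4 fits that left out 1 library, with values from 0.27 to 3.32, and was kept only without replicate 2 with ActA. Of the lower genes, the calls of OCLN (-2.20 to -1.89) and FAM83B (-3.46 to -1.61) were lost in 3 of the 4 fits and that of SPTSSB in all 4. The OCLN call was kept without replicate 1 without ActA and the FAM83B call without replicate 2 without ActA. The 6 genes lower with ActA were 2 without replicate 1 of pre-ME with ActA and 3 without its replicate 2.

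The response of pre-ME to ActA was also compared between the media, as the difference of the ActA effect in cjPSCM from that in TESR. No gene of the 152 was higher (against 0.0317% of all genes) and 2 were lower (against 0.0823%). DESeq2 called 1 higher, and at an unadjusted p under 0.05 with edgeR, without a limit on the fold change, 9 of the 152 were higher (5.92%, against 7.6% of all genes) and 18 lower (11.8%, against 9.79%), both near the share of all genes. Of the 95 genes with 10 counts in 4 of the 8 pre-ME libraries, none was called higher (against 0.034% of all such genes) and 2 were lower (against 0.0885%). HHIP was 1278/1234 normalised counts with ActA and 224/256 without it in pre-ME from TESR, but 69.3/63.2 with ActA and 83.1/97.1 without it in pre-ME from cjPSCM. ActA thus went with a higher HHIP level in TESR and not in cjPSCM, and the effects differed by -2.83 on the log2 scale (SE 0.45, edgeR adjusted p = 0.0121).

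LDLRAD4 was 172/219.7 with ActA and 6.58/8.42 without it in pre-ME from TESR, and 212/226 with ActA and 38.3/43.6 without from cjPSCM. It was higher with ActA in both media, and the effects differed by -2.27 (SE 0.45, edgeR adjusted p = 0.0372). With 1 of the 8 libraries left out at a time, the call was lost in 4 of the 8 fits for HHIP and in all 8 for LDLRAD4, while the difference kept its sign.

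The limit on the fold change removed many calls. By the adjusted p alone, 62 of the 152 genes were higher in cjiPSCs in cjPSCM than in TESR (40.8%, against 18.1% of all genes) and 8 lower (against 18.1%). In pre-ME with ActA, 38 were higher from cjPSCM (25.0%, against 13.2%) and 10 lower (against 14.2%), and in pre-ME without ActA 43 were higher (28.3%, against 8.08%) and 8 lower (against 5.96%). From cjiPSCs to pre-ME, 37 were lower with ActA (24.3%, against 10.3%) and 5 higher (against 7.42%), and 47 were lower without it (30.9%, against 20.1%) and 17 higher (against 17.9%). Between pre-ME with and without ActA 14 were higher (9.21%, against 11.4%) and 12 lower (7.89%, against 9.54%), close to the share of all genes. In the interaction the counts stayed at 0 higher (against 0.158%) and 2 lower (against 0.241%). This criterion was added after the data were seen.

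**Figure D4:**
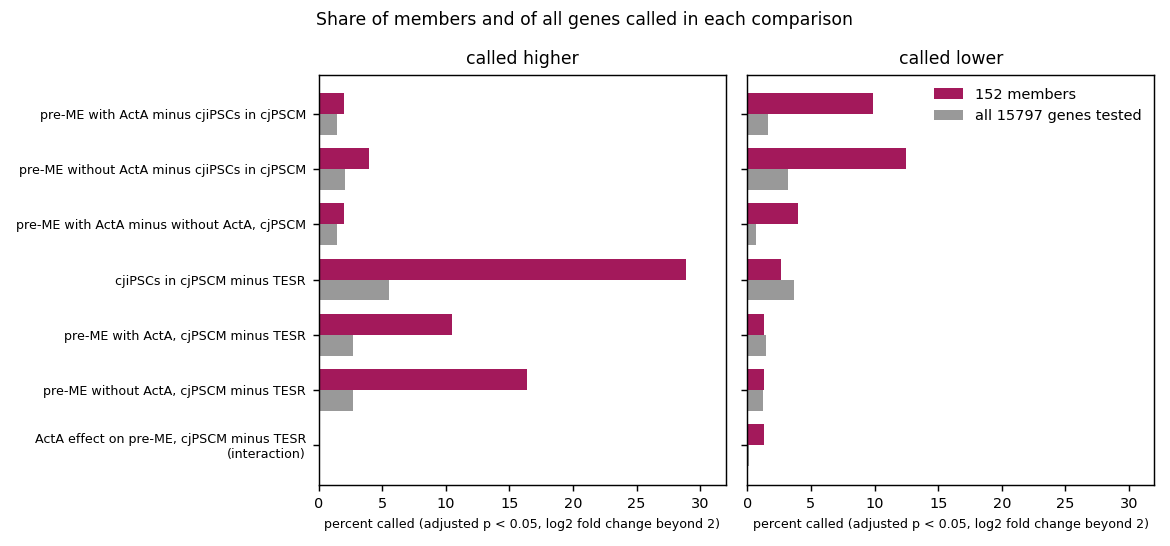
Percent of the 152 genes and of all 15797 genes tested that were called higher (left) and lower (right) in each of the comparisons of cjiPSCs and pre-ME libraries. The largest share is in cjiPSCs, where 28.9% of the 152 genes were higher in cjPSCM than in TESR, against 5.51% of all genes.

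The cjPGCLCs of the 2 protocols were compared last, as a description. The level of these 4 libraries chose the genes, so that the counts and shares given here describe the set and are not evidence about it. The rule did not use the sign of the difference between protocols, but its demand on the lowest library limits how far they can differ. IHH was 264/112 normalised counts with ActA and 1069/567 without (log2 fold change -2.11, SE 0.44). In the fit over all genes it was the 1 gene of the 152 beyond both thresholds as lower with ActA (0.658%, against 0.12% of all genes), and none was beyond them as higher (against 0.26%). It no longer was without replicate 2 with ActA (-1.64) or without replicate 1 without ActA (-1.57). DESeq2 gave none in either direction, and at an unadjusted p under 0.05 with edgeR, without a limit on the fold change, 60 were lower (39.5%, against 6.36%) and 10 higher (6.58%, against 7.04%). With the adjusted p alone, the counts were 17 lower (11.2%, against 1.16% of all genes) and 1 higher (0.658%, against 1.37%). Both libraries with ActA were below both without it in 69 of the 152 genes (45.4%, against 25.4% of all genes), and above in 41 (27.0%, against 25.0%). The median log2 fold change was -0.47, against -0.01 over all genes.

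Among the 17 genes were the endoderm genes IHH and FOXA2 (log2 fold change -1.65, SE 0.38). The hedgehog antagonist HHIP had 435/694 normalised counts with ActA and 1504/2284 without (-1.75, SE 0.28). The epithelial genes TJP3 (-1.69) and CGN, the collagen gene COL23A1 (-1.39), the neighbours DTX3L (-1.35) and PARP9 (-1.13), ZNF296 (-1.58), RBM47 (-1.48), FAM83B, ADTRP, UNC13B, GMPR, RASSF7 and 1 gene with a LOC name were also among them. The 1 gene in the other direction was LRATD1 (log2 fold change 1.19).

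By group, all 13 endoderm genes and all 9 epithelial genes had a log2 fold change below 0, with medians of -1.45 and -1.31. Over the whole set, 88 of the 152 genes were below 0. As given above, the genes of these groups shared nearly one order of the cjPGCLCs libraries, so they are not separate results. HNF4A was at -1.21 (SE 0.47). The 8 germ cell and pluripotency genes had a median of -0.79, with 6 below 0. SOX17 was at -1.13 (SE 0.42), TFAP2C at 0.01 (SE 0.43) and NANOS3 at -0.86 (SE 0.50). The channels and receptors had a median of 0.02 and the matrix and adhesion genes one of 0.43, with 1 of the latter below 0. Marker lists moved with this comparison: the summed level of the 15 endoderm genes was 4342 to 7142 normalised counts in cjPGCLCs with ActA and 7171 to 11512 without, and that of the 20 endothelial and blood genes 10722 to 10739 and 7825 to 8272. The early germ cell list was also lower with ActA, at 3530.4 to 3626 against 4750 to 4898 without. So were the pluripotency, naive pluripotency and epithelial adhesion lists, while the late germ cell and neural lists were higher with ActA. The remaining lists overlapped between the protocols. The part of cells of these types in the differences between protocols was not tested. The genes beyond both thresholds as lower numbered 8 without replicate 1 of cjPGCLCs with ActA, 2 without its replicate 2, and 4 without replicate 2 of cjPGCLCs without ActA.

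**Figure D5:**
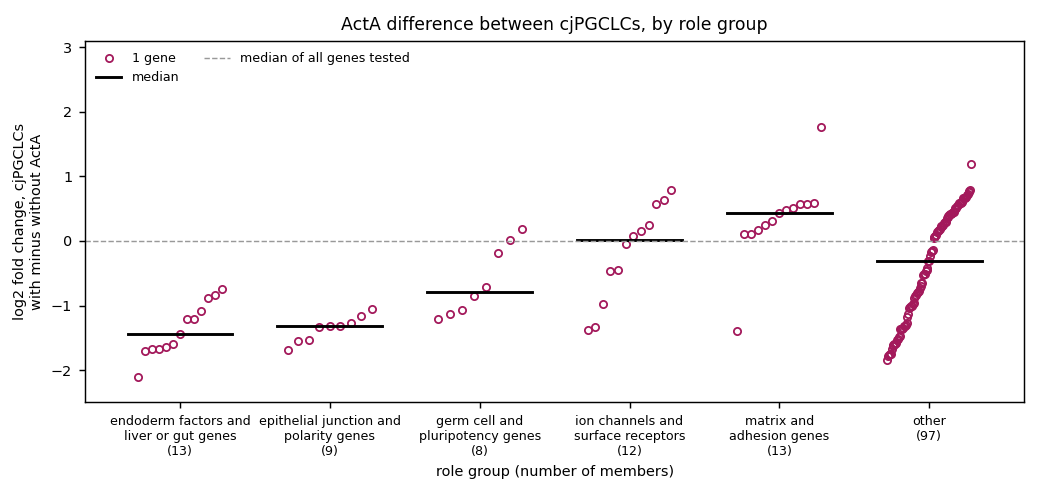
Log2 fold change between cjPGCLCs with and without ActA for each of the 152 genes, by group of function (number of genes in parentheses). Circles are genes, black bars are medians, the dashed line is the median of all genes tested. All endoderm and epithelial genes lie below 0 (88 of all 152 genes do), with medians of -1.45 and -1.31. The matrix and adhesion genes have a median of 0.43.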

How the data were processed

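Poly(A) RNA of 20 libraries was sequenced in pairs of reads by the submitters. Per the submitters' processing notes and the paper, reads were checked with FastQC 0.11.8, aligned to calJac4 with STAR 2.7.0a and counted per gene with HTSeq-count 0.11. The annotation release and the strand setting are not given in the sources used here. The authors deposited the raw counts per gene and, separately, counts divided by DESeq2 size factors, a signal scaled to library depth but not to gene length, which is called normalised counts here. Every value column was matched to a sample by its title, and 0 columns were left without one. Rows of reads without a gene (no feature, 10.6 to 23.2% per library) were left out.

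Levels and the selection of genes were taken from the deposited normalised counts, and tests from the deposited raw counts. Genes were filtered with edgeR's default filter, normalised by TMM and tested with edgeR 4.0.16 (quasi-likelihood, 1 mean per condition over all 20 libraries) in R 4.3.3, with Benjamini-Hochberg adjustment over 15797 genes. Calls asked for an adjusted p below 0.05 together with a log2 fold change above 2 in size. The 7 contrasts and the interaction did not include soma, and the contrast within cjPGCLCs is descriptive because those libraries chose the genes. Replicates are cultures of 1 line, so p-values measure the spread between cultures. On simulated counts edgeR and DESeq2 recovered 200 of 200 genes that had been shifted by 3 on the log2 scale in both comparisons simulated, among 15218 and 15328 genes. For pre-ME with ActA against cjiPSCs, edgeR also called 1 gene that had not been shifted. The simulation gave every gene the same spread and shifted no gene with few counts. It therefore checks that the code runs as meant, and not how calls hold in genes with few counts or unlike replicates. Tables were handled with Python 3.11.15 and pandas 2.3.3.

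The genes named were those of the marker lists in the set, those with the highest ratios, those with the largest changes called in each comparison, and those nearest to the limit of the rule. Other genes are named for their function, with their values already known. Results for some genes of the set are not reported here. The members of the set, the marker lists and the comparisons were chosen with earlier results of these data known. Alternatives were other limits of the rule, TMM scaling, no filter on low counts, glmTreat, DESeq2 1.42.0, fits of the compared libraries alone, a replicate block, and each library left out in turn. The adjusted p alone, a minimum of 10 counts in 2 of the 4 libraries compared (4 of 8 for the interaction), a crossed block and a stage defined relative to the cjPGCLCs level were added after the data were seen.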

Additional observations from a re-analysis of the deposited data

Results flagged for a closer look

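The effect of ActA on pre-ME differed between the media in 2 of the 152 genes by the interaction term of edgeR's fit. Both were lower (1.32%, against 0.0823% of all genes tested), and none was higher (against 0.0317%). For HHIP, the hedgehog antagonist, the log2 effect in cjPSCM minus that in TESR was -2.83 (SE 0.45, adjusted p = 0.0121). For LDLRAD4, the restraint on TGFβ signalling, it was -2.27 (SE 0.45, adjusted p = 0.0372). Both libraries with ActA lay above both without it in TESR for each gene, and in cjPSCM for LDLRAD4 but not for HHIP. Neither call was stable. With 1 of the 8 libraries left out at a time, it was lost in 4 of the 8 fits for HHIP (-2.97 to -2.74). For LDLRAD4 it was lost in all 8 (-2.48 to -2.09). What underlies the differences was not tested.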

How the results depend on the processing

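The number of genes in the set was 216 with a ratio of 2, 75 with a ratio of 4, 167 and 115 with a mean of 10 and 50, and 160 with TMM scaling. Leaving out 1 sorted library at a time gave 157 to 215, the highest without replicate 2 of cjPGCLCs with ActA.

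Counts of called genes changed with the threshold. With glmTreat, which tests against the log2 limit of 2 itself, pre-ME with ActA against cjiPSCs gave 0 genes higher and 1 lower (3 and 15 as reported), pre-ME without ActA 0 and 4 (6 and 19), pre-ME with against without ActA 0 and 0 (3 and 6), cjiPSCs between media 19 and 2 (44 and 4), pre-ME between media with ActA 7 and 1 (16 and 2) and without 9 and 0 (25 and 2), cjPGCLCs with against without ActA 0 lower (1), and the interaction 0 lower (2). With the adjusted p alone the counts higher and lower were 5 and 37, 17 and 47, and 14 and 12 for the first 3 of these comparisons. They were 8 lower for cjiPSCs between media, 38 and 10 for pre-ME between media with ActA, 43 and 8 without, and 1 and 17 for cjPGCLCs. Fits of the compared libraries alone gave 0 higher and 2 lower for pre-ME with ActA against cjiPSCs, 3 and 10 without ActA, and 5 lower for the interaction. DESeq2 gave 0 lower for cjPGCLCs and 1 higher and 6 lower for the interaction. Without a filter on low counts, 5 were lower in pre-ME with ActA between media and 7 in the interaction. These differences follow from the stricter or looser threshold for glmTreat and the adjusted p alone. For the other settings the cause was not tested. With 10 counts asked for in 2 of the 4 libraries compared (4 of 8 for the interaction), added after the data were seen, every count stayed within 1.5 times that reported.

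With 1 library left out at a time, genes higher and lower ranged from 2 to 5 and from 4 to 22 for pre-ME with ActA against cjiPSCs, from 4 to 9 and from 10 to 23 without ActA, and from 2 to 4 and from 2 to 4 for pre-ME with against without ActA. They ranged from 33 to 45 and from 4 to 6 for cjiPSCs between media, from 12 to 17 and from 1 to 3 for pre-ME with ActA between media, and from 22 to 27 and from 1 to 2 without. For cjPGCLCs they were 0 to 0 and 1 to 8, and for the interaction 0 to 0 and 0 to 3. IHH fell short of both thresholds in 2 of these fits.

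The replicate numbers were shared by the conditions but nothing in the labels ties them to a batch, and the correlations of same-numbered deviations were -0.193 to 0.234. With a replicate block, genes higher and lower numbered 3 and 14, 8 and 18, 2 and 6, 45 and 4, 17 and 2, 27 and 2, 0 and 1 and, for the interaction, 0 and 3, in the order of the comparisons above. With crossed pairing they were 3 and 15 and 7 and 17 for pre-ME with and without ActA against cjiPSCs. The alternatives followed only part of the single-gene results and left out small differences, such as that of TFAP2C between cjPGCLCs with and without ActA. Among the results followed, no log2 fold change turned its sign in any alternative. Across these results and alternatives, 1115 kept their side of the adjusted p threshold, 139 lost it and 32 gained it. With 2 libraries per condition, differences in genes with few counts rest on little data.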
